A study of Homo sapiens with 6 samples.

Results

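The 763 gained loci described here are places in the genome where all 3 SAP30-KO1 libraries had an ATAC-seq peak summit and none of the 3 parental libraries did. ATAC-seq uses a transposase that inserts sequencing adapters into accessible DNA, so that reads pile up over open promoters and enhancers. Both groups were MDA-MB-231 cells, a widely used line from a human breast cancer without hormone receptors or HER2. The Parental group (n = 3) carried no engineered change, and the SAP30-KO1 group (n = 3) was derived from the same line by CRISPR knockout of SAP30. Per the study's methods, SAP30-KO1 was a mixture of several selected and expanded knockout cells, and the parental cells did not go through that selection, so the knockout and the selection cannot be told apart here. Nothing in the labels says that the 3 libraries of a group came from separate cultures. To choose the loci, each summit was widened by 250 bp on each side, overlapping windows of the 6 libraries were merged into union loci, and a union locus was kept when it had a summit in every SAP30-KO1 library and in no parental one. Chromosomes 1 to 22 were used, without chromosome 11 from base 54694205 (hg19) to its end, the long arm. On this territory 763 of 53008 union loci (1.44%) were gained, out of 56419 union loci on all chromosomes. The opposite pattern, a summit in every parental and no SAP30-KO1 library, was met by 425 loci (0.802%), called lost loci below. Because the gained loci were chosen by the presence of a summit in these same libraries, the counts of both patterns and everything that follows from them are descriptions without a test.

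SAP30 is a subunit of the SIN3 complex, a scaffold that brings histone deacetylases and other enzymes to chromatin and is known above all as a corepressor. Open chromatin away from gene starts is commonly an enhancer, a stretch of DNA where transcription factors bind and displace nucleosomes. In invasive breast cancer cells such elements often carry sites of AP-1, the dimers of FOS and JUN proteins, and of TEAD and RUNX factors. Promoters, in turn, are mostly rich in CpG and are open in many cell types.

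Most gained loci lay outside promoters. The sequences of 6 of the 20 highest-ranked gained loci, 5 outside promoters and 1 at a promoter, are shown for their motif matches and CpG content. Each run below is the plus strand of GRCh37 (hg19) from 100 bp before to 100 bp after the median summit. KLHL29 and PLXNA2 are shown for an AP-1 match, KLHL3 and NTPCR for the same pair of matches, PPP2R2B for a single C/EBP match, and STON2 as a CpG-rich sequence at a start site. In the STON2 run, capitals mark the 11 CpG dinucleotides. In the other 5 runs, capitals mark every match to the 22 motifs searched.
KLHL29 (chr2:23825086-23825286, AP-1): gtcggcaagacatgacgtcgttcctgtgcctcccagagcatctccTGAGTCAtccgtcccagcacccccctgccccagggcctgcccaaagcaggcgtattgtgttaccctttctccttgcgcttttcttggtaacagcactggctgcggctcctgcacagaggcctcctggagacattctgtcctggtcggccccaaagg
PLXNA2 (chr1:208683698-208683898, CEBP at 2 places, then AP-1): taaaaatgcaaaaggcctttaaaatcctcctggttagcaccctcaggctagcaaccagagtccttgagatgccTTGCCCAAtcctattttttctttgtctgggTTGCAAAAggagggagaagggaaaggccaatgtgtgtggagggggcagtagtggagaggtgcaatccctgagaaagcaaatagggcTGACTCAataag
KLHL3 (chr5:136957905-136958105, E-box, then RUNX): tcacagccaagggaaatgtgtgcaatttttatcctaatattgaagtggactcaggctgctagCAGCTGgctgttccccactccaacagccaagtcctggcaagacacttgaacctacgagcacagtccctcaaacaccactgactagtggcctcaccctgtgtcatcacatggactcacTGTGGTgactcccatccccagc
NTPCR (chr1:233026785-233026985, E-box, then RUNX): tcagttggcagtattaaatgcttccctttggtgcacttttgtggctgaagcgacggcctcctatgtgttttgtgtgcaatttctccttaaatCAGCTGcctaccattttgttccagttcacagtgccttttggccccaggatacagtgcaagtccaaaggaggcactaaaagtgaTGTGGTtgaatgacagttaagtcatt
PPP2R2B (chr5:146240022-146240222, CEBP): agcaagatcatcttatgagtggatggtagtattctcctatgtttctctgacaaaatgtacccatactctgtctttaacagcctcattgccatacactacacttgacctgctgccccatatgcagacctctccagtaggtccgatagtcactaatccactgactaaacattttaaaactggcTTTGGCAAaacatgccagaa
STON2 (chr14:81790325-81790525, CpG in capitals): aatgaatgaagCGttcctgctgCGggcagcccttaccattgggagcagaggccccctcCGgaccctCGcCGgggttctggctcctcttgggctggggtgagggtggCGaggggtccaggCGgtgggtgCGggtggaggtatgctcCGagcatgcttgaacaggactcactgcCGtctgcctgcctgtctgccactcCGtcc
A match is a description of letters, not a bound site.

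Scores in the deposited lists are −log10 q values from the peak caller and are not on a common scale between libraries. Each summit was therefore given its percentile rank within its own list, from 0 for the weakest to 100 for the strongest. Gained loci sat in the weaker part of the lists. Their median rank was 31.4 in SAP30-KO1 replicate 1, 40 in replicate 2 and 35.7 in replicate 3, where the 15444 loci with a summit in all 6 libraries had medians of 69.7, 78.3 and 73.7. Only 37, 51 and 51 gained loci ranked above 75 in the 3 libraries, and 3, 8 and 7 ranked above 90. All 3 libraries ranked 54 gained loci (7.08%) above 50, and all 3 ranked 321 (42.1%) below 50. The mean rank over the 3 libraries ran from 2.99 to 94.4, with a median of 35.3, and the median for lost loci in the parental libraries was 36.6. A gained locus also varied more between its 3 libraries than a locus open in all 6, with a median SD of 15.8 rank points against 10.7. In 680 loci (89.1%) each SAP30-KO1 library gave exactly 1 summit. Over all 763 gained loci, the highest-scored summits of the 3 SAP30-KO1 libraries lay a median of 235 bp from the first to the last. The same median was 202 bp at loci of all 6 libraries.

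Loci just outside the rule had ranks that overlapped those of gained loci, whose median mean rank was 35.3. They were somewhat higher with 1 parental summit and lower with 1 SAP30-KO1 library missing. A further 1456 loci had a summit in all 3 SAP30-KO1 libraries and in 1 parental library, with a median mean rank of 39.9 in SAP30-KO1 and a median rank of 30.3 for the single parental summit. That single parental summit came from Parental replicate 1, the longest parental list, at 643 loci, from replicate 2 at 366 and from replicate 3 at 447. Another 1986 loci had summits in exactly 2 SAP30-KO1 libraries and no parental one, with a median mean rank of 26.3. The missing library was SAP30-KO1 replicate 1, the shortest of the 6 lists with 29762 summits, at 1079 of them. The rule thus divides a continuous range of ranks, and a locus without a parental summit is one where no peak passed the caller's q threshold of 0.05, not one shown to be closed.

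The 4 highest-ranked loci outside promoters were at a kelch-family gene, a lysosomal enzyme gene, an amino acid transporter gene and a second kelch-family gene. KLHL29, a gene of the kelch-like family, held the top locus in an intron (chr2:23824764-23825591), with ranks of 94.8, 96.4 and 91.9 in SAP30-KO1 replicates 1, 2 and 3. It was the only gained locus ranked above 90 in all 3 libraries. GALC, which encodes the lysosomal galactocerebrosidase, held the next one in an intron (chr14:88336015-88336828), with ranks of 70.0, 89.5 and 96.5. The locus nearest SLC6A15, a neutral amino acid transporter gene, was intergenic, past the end of the gene and 67985 bp downstream of its nearest annotated start (chr12:85189356-85189986) and ranked 82.3, 84.9 and 83.0. These 3 ranks lay within a few points of each other, whereas the GALC locus ranked lowest in replicate 1 and highest in replicate 3. KLHL3, whose product carries substrates to the CUL3 ubiquitin ligase, had an intronic locus (chr5:136957715-136958509) with ranks of 90, 76.8 and 73.1.

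The remaining loci among the 20 highest were intronic or intergenic, apart from the TENM2 and STON2 promoters. The NTPCR locus (chr1:233026634-233027419), 59466 bp upstream of the start of this nucleoside triphosphatase gene and in an intron of a noncoding gene, ranked 74.7, 93.9 and 69.2. PPP2R2B, a regulatory subunit gene of the phosphatase PP2A, had an intronic locus (chr5:146239765-146240502) at 74.9, 74.6 and 88.1. AFDN, which encodes the junction protein afadin, had one (chr6:168330786-168331562) at 85.2, 74.1 and 70.3. PLXNA2 encodes a semaphorin receptor of growing axons. Its intergenic locus, 266069 bp upstream (chr1:208683532-208684096), ranked 44.9 in replicate 1 and 93.5 and 90.3 in replicates 2 and 3, the widest spread among these 20. Replicate 1 also gave the lowest rank at EDN2, the endothelin 2 gene (58.6, 72.4 and 90.4), and at OLFM3, an olfactomedin gene (47.7, 75.9 and 89.7). The other loci of the 20 were nearest KHDRBS3 at 2 places, ADCY8, FAM98A, FOXD3, RBM20, RPS6KC1 and ELMO1, with mean ranks from 71.7 to 78.0. At the other end, the 3 weakest gained loci were in an intron of ABR (mean rank 2.99), at the promoter of RPP25L (4.75) and in an intron of PPARA, a lipid-sensing nuclear receptor gene (6.01).

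**Figure D1:**
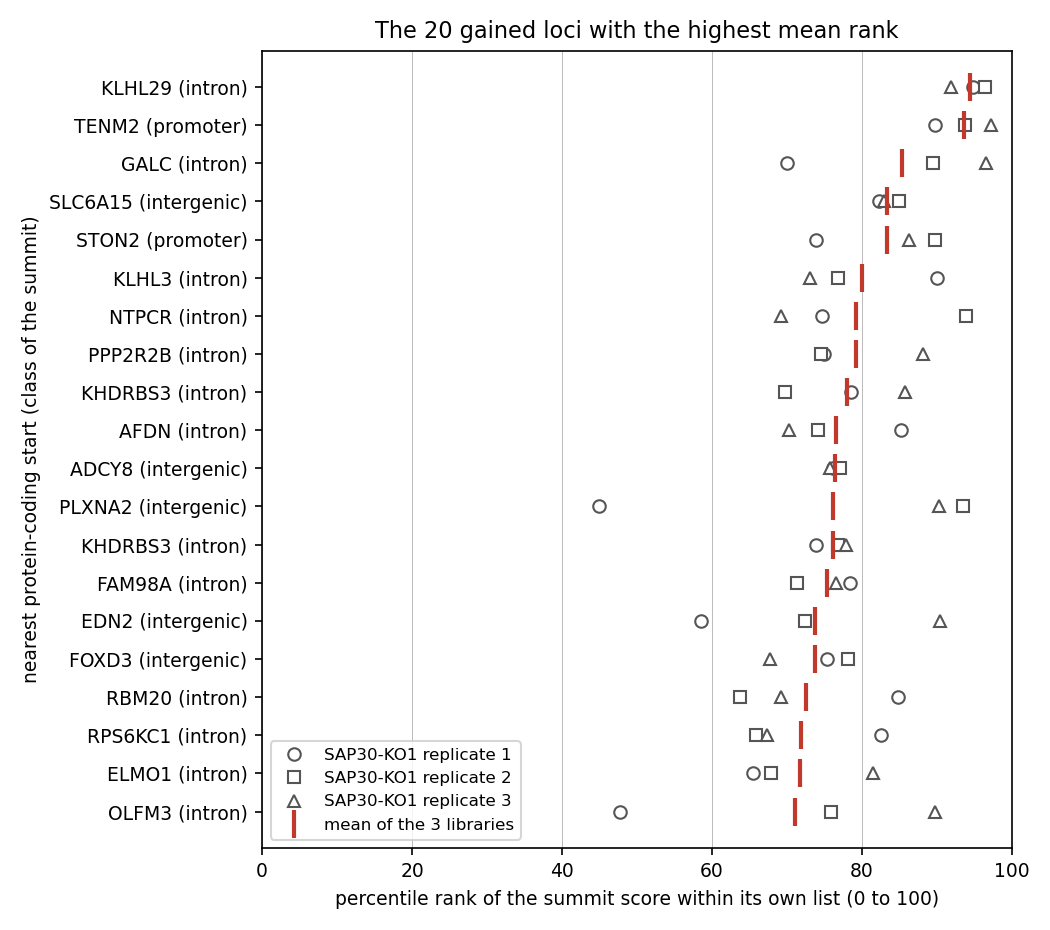
Percentile rank of the summit score within its own list (x axis, 0 to 100) in each of the 3 SAP30-KO1 libraries for the 20 gained loci with the highest mean rank (y axis, nearest protein-coding start and class). KLHL29 and TENM2 had all or nearly all points at 90 or above, while PLXNA2 and OLFM3 had 1 library under 50.

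Gained loci were fewer at promoters than open chromatin in general. A promoter was counted within 1 kb of the start of any GENCODE transcript. By that definition 133 gained loci (17.4%, Wilson 95% interval 14.9% to 20.3%) were at promoters, 23 (3.01%) in other exons, 367 (48.1%) in introns and 240 (31.5%) between genes. The interval covers counting error only and takes loci as independent, which neighbouring loci are not. Among loci of all 6 libraries 43.5% were at promoters, and among all union loci 29.3%. The lost loci, at 21.2% promoters and 43.3% introns, were closer to the gained loci than to the loci of all 6 libraries. Read by class, 0.858% of union loci at promoters were gained, against 1.68% in introns and 1.71% between genes. These shares count loci of all 6 libraries, which by the rule cannot be gained. Such loci were 6718 of 15510 union loci at promoters, 5197 of 21901 in introns and 3174 of 14054 between genes. Their part in the lower promoter share was not tested.

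The gained loci with higher ranks were farther from promoters still. Of the 191 loci highest in mean rank 9.42% were at promoters and 56.5% in introns, and of the 190 lowest 28.9% and 38.9%. The median mean rank was 27.5 at gained promoters and 38.2 at gained introns.

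**Figure D2:**
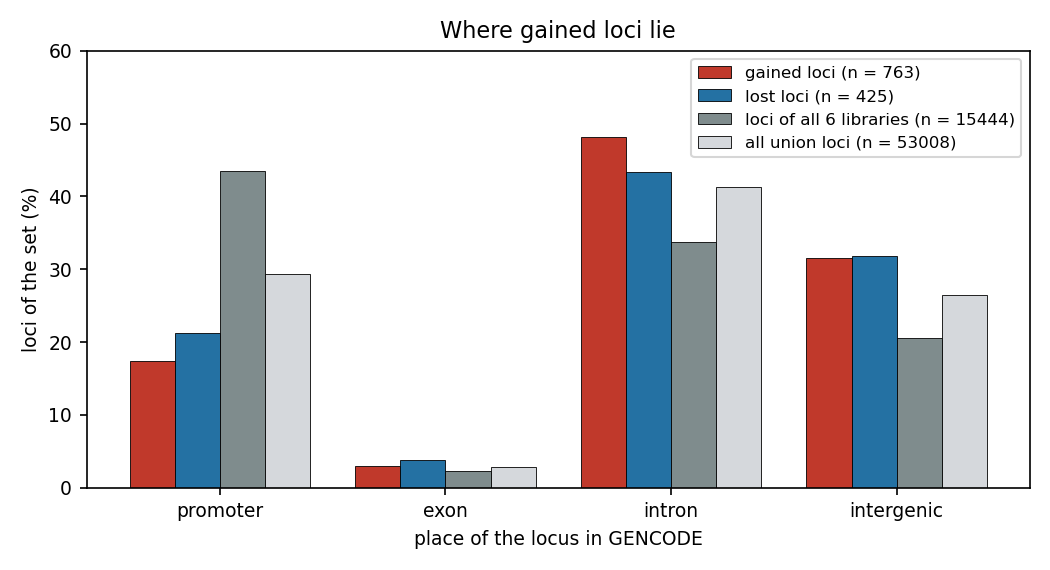
Share of loci (y axis, percent) in each GENCODE class (x axis) for gained loci, lost loci, loci of all 6 libraries and all union loci. Introns held 48.1% and promoters 17.4% of gained loci, while promoters held 43.5% of loci of all 6 libraries.

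Few gained promoters had high ranks, and the 2 highest lay over coding exons. TENM2 encodes teneurin 2, a transmembrane adhesion protein of synapses. Its gained locus (chr5:167379386-167380178) ranked 89.7, 93.8 and 97.2, and its median summit was 267 bp downstream of an annotated start inside the gene. The summit fell in a coding exon (167379593 to 167379827) of longer TENM2 transcripts. STON2 encodes stonin 2, an adaptor of synaptic vesicle endocytosis. Its locus (chr14:81790173-81790702) ranked 73.9, 89.7 and 86.3, with the summit 398 bp upstream of an internal start and in a coding exon (81790361 to 81790531). The assignment of both loci to a promoter therefore rests on an alternative start. Over all gained loci, 18 summits (2.36%) fell in coding sequence, against 2.83% of all union loci.

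The next protein-coding promoters had lower mean ranks, and most spread more widely between libraries. HPX, the gene of the heme carrier hemopexin, ranked 90.6, 71.4 and 46.7 (chr11:6452883-6453629). UTRN, which encodes the dystrophin relative utrophin, ranked 50.1, 74.4 and 64.7 (chr6:144605929-144606493), and CTIF, a translation initiation factor gene, 54.0, 62.3 and 62.7. AKAP7, a gene of a protein kinase A anchor, ranked 19.0, 90.4 and 59.8, so the same promoter was near the bottom of one list and near the top of another. TBC1D22A, TFPI (the inhibitor of tissue factor), SLC26A1 (an anion transporter) and ZBBX completed the 10 highest at protein-coding starts, with mean ranks of 56.0, 55.0, 53.4 and 52.4. At HPX, CTIF, AKAP7, TFPI and ZBBX the start was again an alternative one inside the gene, away from its outermost annotated start. Of the 133 gained promoters, 109 (82.0%) belonged to a protein-coding gene and 15 (11.3%) were those of a long noncoding RNA gene only. Gained promoters had a median GC content of 61.7% within 100 bp of the summit, against 65.7% at promoters of all 6 libraries.

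Within genes, gained loci were found more often in long genes. The 263 gained introns of protein-coding genes lay in genes with a median length of 268 kb, against 165 kb for lost loci, 189 kb for loci of all 6 libraries and 190 kb for all union loci. Of these 263, 72 (27.4%) were in genes over 500 kb, against 16.6%, 16.9% and 17.3% in the same order. Outside promoters, 1.68% of all union loci were gained. The share rose with each step of gene length: it was 1.09% in genes up to 100 kb (56 of 5123 loci), 1.57% from 100 to 500 kb, 2.38% from 500 kb to 1 Mb and 3.03% in genes over 1 Mb (24 of 791). For lost loci the shares were 1.15%, 0.808%, 0.665% and 1.26%, without that order.

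Gained loci also lay in sparser chromatin. Their median distance to a protein-coding start was 35009 bp, against 16934 bp for lost loci, 8503 bp for loci of all 6 libraries and 16066 bp for all union loci. Of union loci over 500 kb from a protein-coding start 2.14% were gained and 1.12% lost. Of those within 1 kb 0.854% were gained and 0.455% lost, so both shares were lower there. Where at most 1 locus of all 6 libraries lay within 500 kb, 75 of 2864 union loci (2.62%) were gained. That share was 1.63% with 2 to 5 such neighbours, 1.40% with 6 to 10 and 1.05% with more than 10. The lost shares stayed between 0.754% and 0.978% over the same steps. Loci of all 6 libraries were themselves counted among these union loci and can be neither gained nor lost. The nearest parental summit was a median of 17880 bp away, and 22 gained loci (2.88%) had one within 1 kb.

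**Figure D3:**
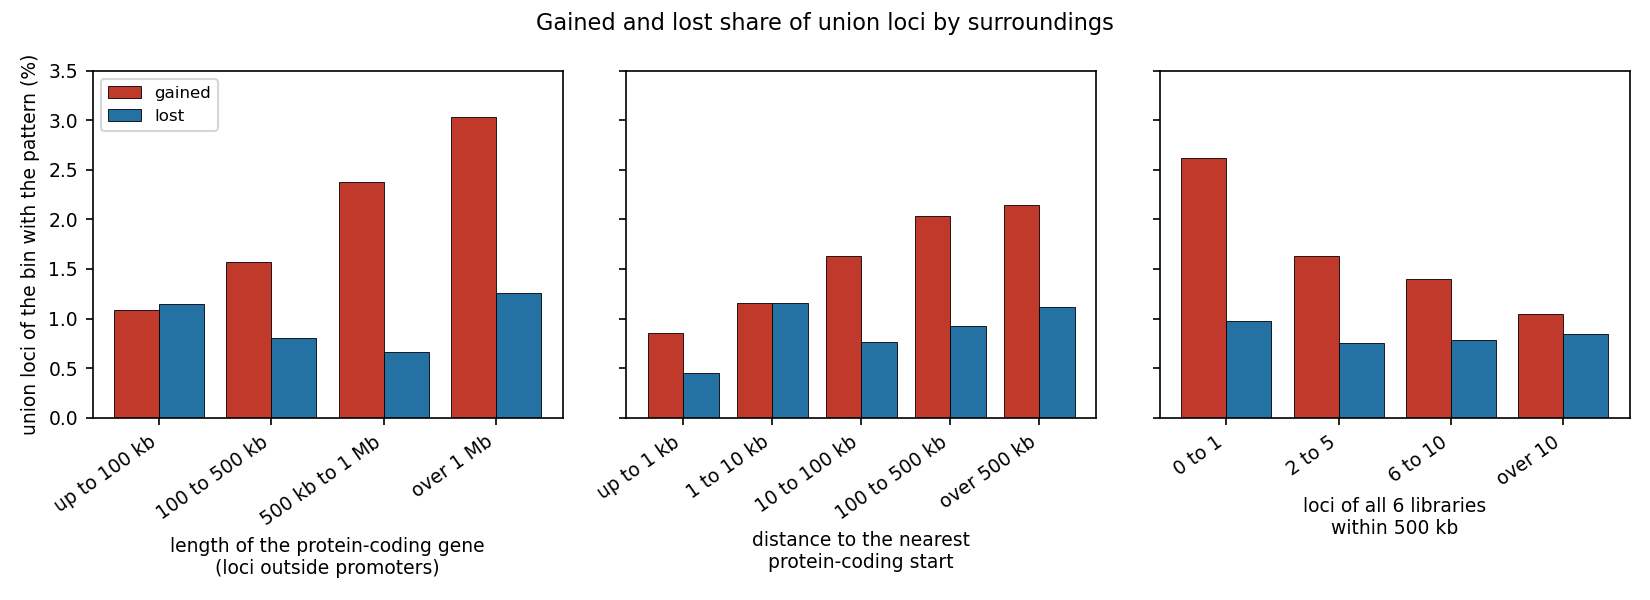
Share of union loci that were gained or lost (y axis, percent) by length of the surrounding protein-coding gene, by distance to the nearest protein-coding start and by number of neighbouring loci of all 6 libraries (x axes). The gained share went from 1.09% to 3.03% with gene length and from 2.62% to 1.05% with the number of neighbours, and the lost share followed neither order.

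Taken over all classes, the sequence under the gained loci was poorer in GC and in CpG than open chromatin in general. The median GC content within 100 bp of the median summit was 46.8%, against 49.3% in lost loci, 54.2% in loci of all 6 libraries and 49.3% in all union loci. A mean of 4.37 CpG dinucleotides was found per gained locus, against 8.96 per locus of all 6 libraries. In introns alone the GC medians were 45.3% for gained loci, 48.3% for lost loci, 47.3% for loci of all 6 libraries and 45.8% for all union loci. Between genes they were 45.8%, 45.8%, 47.8% and 46.3% in the same order. Within these classes gained loci were thus close to all union loci, and between genes they equalled the lost loci. The difference from loci of all 6 libraries was also smaller within them, while that from lost loci was not smaller in introns. At promoters the gained loci had the higher median of the gained and lost loci, 61.7% against 59.5%. By GC content, 1.69% of union loci under 40% GC were gained, 1.76% from 40 to 50%, 1.43% from 50 to 60% and 0.800% at 60% and over.

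AP-1 was the match found most often in gained loci and in all union loci. The letters TGANTCA, read on both strands as were all motifs, were in 217 gained loci (28.4%, Wilson 95% interval 25.4% to 31.7%, counting error only). They were in 16.2% of lost loci, 24.0% of loci of all 6 libraries and 22.6% of all union loci, as in the KLHL29 and PLXNA2 sequences above. Outside promoters the shares were 32.1% in gained loci, 18.2% in lost loci, 36.5% in loci of all 6 libraries and 28.3% in all union loci. Gained loci were thus between all distal loci and the constitutive ones, and the lost loci had the lowest share. Gained introns (33.2%) and gained intergenic loci (29.2%) had the match more often than gained promoters (11.3%). Measured from each SAP30-KO1 library's own summit, 21.6% to 24.2% of gained loci had a match within 100 bp, and a match 50 to 100 bp away (13.6% to 14.2%) was more frequent than one within 50 bp (7.99% to 10.1%). Loci of all 6 libraries had the same order in these libraries, with 11.2% to 11.4% and 7.52% to 7.83%. Within 50 bp of the median summit the shares were 11.1% in gained loci, 6.12% in lost loci and 11.6% in loci of all 6 libraries. The higher share of gained loci than of loci of all 6 libraries was thus not seen around the median summit in that narrower window. Around each library's own summit it was, with 7.99% to 10.1% against 7.52% to 7.83%.

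In gained loci each of the other motifs searched was found less often than AP-1. The SP and KLF letters GGGCGG, typical of CpG-rich promoters, were in 11% of gained loci and 27.6% of loci of all 6 libraries, and outside promoters in 3.97% of gained, 7.76% of lost and 5.95% of all union loci. TEAD letters (GGAATG) were in 17.7% of gained, 17.6% of lost and 15.0% of all union loci. RUNX letters (TGTGGT), marked in KLHL3 and NTPCR above, were in 16.6% of gained, 21.6% of lost and 15.9% of all union loci. The C/EBP letters TTGCNNAA were in 11% of gained and 9.09% of all union loci, and GATA letters (AGATAA) in 10.4% of gained, 14.4% of lost and 9.13% of all union loci. E-box letters CAGCTG were in 9.83% of gained, 15.5% of lost and 12.6% of all union loci. The element of REST, a repressor that recruits SIN3 to neuronal genes, matched no gained locus, no lost locus and 35 of all union loci (0.0660%). Since its matches were this rare, its absence from the gained and lost loci says little. The p53 pattern searched matched no locus of any kind, so its absence from gained loci carries no information.

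**Figure D4:**
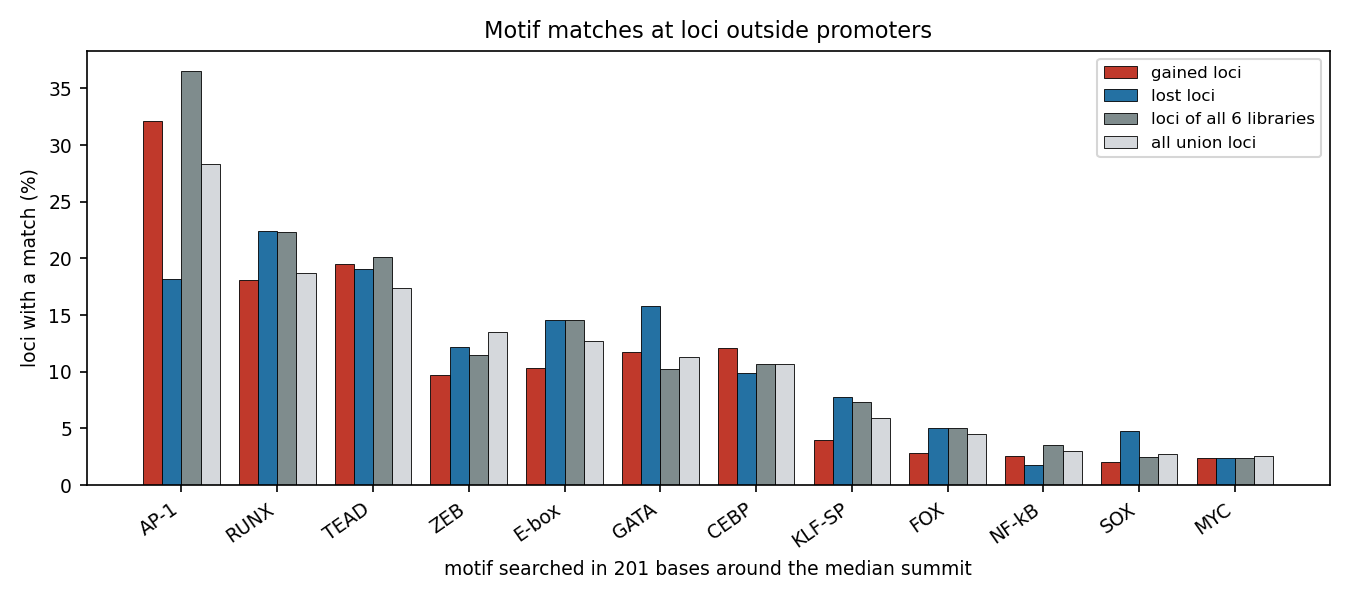
Share of loci outside promoters with a match (y axis, percent) for the motifs found in at least 2% of all union loci (x axis), in gained loci, lost loci, loci of all 6 libraries and all union loci. AP-1 was found in 32.1% of gained and 18.2% of lost loci.

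Gained loci were scattered over the genome, with a few groups of neighbours. A total of 677 were single, with no other gained locus within 100 kb, and the remaining 86 (11.3%) formed 38 pairs and 3 larger clusters. The median distance to the next gained locus was 836 kb, and 56.1% had one within 1 Mb. The largest cluster was far downstream of KHDRBS3, an RNA-binding protein gene, on the long arm of chromosome 8. There, 4 of the 5 union loci in 50.6 kb of a LINC02055 intron were gained. Their ranks in replicates 1, 2 and 3 were 78.6, 69.7 and 85.8 for the first, 36.0, 25.8 and 76.8 for the second, 57.6, 45.1 and 51.5 for the third and 73.9, 76.8 and 77.9 for the last. The remaining union locus of that stretch had a summit in all 6 libraries, and a further gained locus lay past the cluster with KHDRBS3 as its nearest protein-coding start. The second cluster was in a gene-poor stretch of chromosome 2 (chr2:83220734-83283090), over 1 Mb from SUCLG1, a gene of the citric acid cycle. In it, 3 of 4 union loci were gained, with mean ranks from 41.8 to 64.5. The third (chr3:192925113-193053438) held 3 gained of 5 union loci, 1 upstream of PLAAT1 and 2 in introns of ATP13A5, a cation-transporting ATPase gene, with mean ranks from 42.7 to 59.4.

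The gained loci were spread over many genes. As nearest protein-coding start, 672 genes were named at least once, 4.89% of the 13756 genes nearest any union locus, and 596 of them once only. KHDRBS3 was nearest to 5 gained loci of its 47 union loci. The genes nearest to 3 gained loci each were 10 in number: BTBD3, CAMK1G, CTNNA2, GALC, NEGR1, PLPPR4, QKI, RYBP, SUCLG1 and ZNF385D. PLPPR4, a brain phospholipid phosphatase-related gene, had only 5 union loci, of which 3 were gained and none was open in all 6 libraries. NEGR1, a neuronal cell adhesion gene, had 3 gained of 23, with mean ranks of 63.4, 61.1 and 27.7. Of these 10, CAMK1G and CTNNA2 were each also nearest to 1 lost locus, and the others to none. Over all genes, 40 were nearest both a gained and a lost locus. They were 10.1% of the 396 genes with a lost locus, where 4.89% of the 13756 genes had a gained one. Of the 672 genes with a gained locus they were 5.95%, where 396 of the 13756 genes had a lost one.

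The gene lists give the same loci by function. Of 1016 union loci nearest a gene of axon guidance or neuronal adhesion, 29 (2.85%) were gained and 12 (1.18%) lost, where 1.44% and 0.802% of all union loci were. They belonged to 18 genes, with the highest ranks at TENM2, PLXNA2, NEGR1, SEMA6D (mean rank 60.1) and CNTNAP5 (59.6). Of 449 union loci nearest a voltage-gated or potassium channel gene, 17 (3.79%) were gained and 4 lost, at 11 genes. The highest of these were KCNMB2, a regulatory subunit gene of the large-conductance potassium channel (63.3), 2 loci in introns of KCNN2, a small-conductance channel gene (54.5 and 54.3), and KCNU1 (53.3). Genes of both lists are often long, and the gained shares of their loci outside promoters, 3.1% and 4.17%, stand beside 2.38% and 3.03% for all loci in genes of 500 kb to 1 Mb and over 1 Mb. The part of gene length in these shares was not tested.

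The other lists had lower shares or few gained loci. Glutamate and GABA receptor genes had 5 of 157 (3.18%), with GRIA1 highest (mean rank 61.6), and Notch pathway genes 4 of 123 (3.25%), 2 at the ligand gene JAG1 and 2 at RBPJ, the DNA-binding partner of Notch. WNT pathway genes had 7 of 318 (2.20%), among them WNT5A (62.1) and the receptor gene FZD2 (53.7), and integrins 2 of 91 (2.20%). Cadherins and protocadherins had 9 of 468 (1.92%), led by CDH9 (61.9), PCDH15 (58.6) and CDH12 (54.2). Matrix genes had 8 of 454 (1.76%), led by COL11A1 (67.2), and phosphodiesterases and adenylyl cyclases 4 of 233 (1.72%), with ADCY8 at 76.4. Developmental transcription factors had 15 of 1201 (1.25%), led by TBX15 (62.7) and NFIA at 2 places (58.0 and 57.4). Also below the share of all loci were matrix proteases (1.3%), receptor tyrosine kinases (1.11%), inflammatory cytokines and chemokines (1.08%), mesenchymal and epithelial markers (1.03%) and the TGF-beta and BMP pathway (0.940%).

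At the genes closest to the study's question there were hardly any gained loci, with few union loci in most of these lists. Angiogenic ligands and receptors had 1 gained locus of 310 (0.323%), near EDN1, the endothelin 1 gene. None of these 310 was lost, beside 0.802% of all union loci. None of 44 union loci at SIN3 complex subunit genes was gained, and none of 67 at AP-1 factor genes, beside 1.44% of all union loci. The genes tracked by the study as coactivated by SAP30 and SIN3 had 7 union loci and those tracked as corepressed had 5, and none of these 12 was gained or lost. Only 3 of the 6 coactivated genes were nearest any union locus of this territory, so the others were not read here. Loci on the long arm of chromosome 11, which was left out, could not be counted for any gene. With so few loci the counts at SIN3 subunit, AP-1 factor and tracked genes say little about any of these groups.

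**Figure D5:**
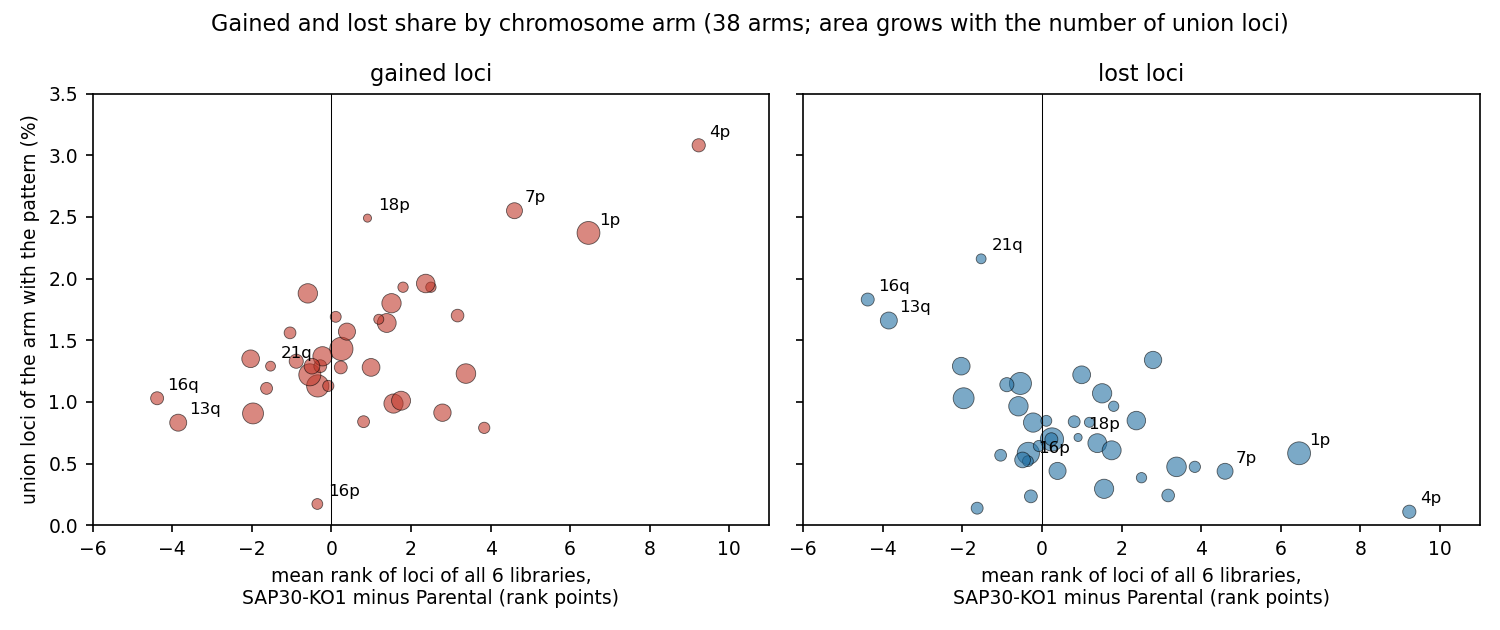
Share of union loci of a chromosome arm that were gained (left) or lost (right, y axes, percent) against the difference in mean rank of loci of all 6 libraries on that arm, SAP30-KO1 minus Parental (x axis, rank points). The arms 4p, 1p and 7p had the largest rank differences, gained shares of 3.08%, 2.37% and 2.55%, and lost shares of 0.110%, 0.584% and 0.438%.

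The gained share differed between chromosome arms, in part together with the ranks of loci open in all libraries. Over 38 arms it ran from 0.173% on 16p (1 of 577) to 3.08% on 4p (28 of 909), with a median of 1.31%. On 4p the 233 loci of all 6 libraries had parental mean ranks of 65.5, 61.6 and 65.3 and SAP30-KO1 mean ranks of 69.6, 77.5 and 73.0, so the groups did not overlap. On 1p (69 gained of 2910) these values were 68.6, 62.4 and 66.2 against 68.2, 76.5 and 71.8, and on 7p (35 of 1371) 69.2, 65.8 and 68.5 against 68.0, 76.5 and 72.7, and there the groups overlapped. Relative to each library's own mean over all loci of the 6 libraries, the values were −1.86, −2.87 and −1.79 against 3.74, 2.96 and 3.37 on 1p and −1.24, 0.52 and 0.57 against 3.54, 3.02 and 4.29 on 7p, which do not overlap. This relative scale was chosen after the values were seen. The arms 1p, 4p and 7p had the largest rank differences of the 38 and were the only ones read by library. Across the 38 arms, which share the same 6 libraries, the gained share and this rank difference had a Pearson correlation of 0.60 and a Spearman correlation of 0.40, and for the lost share they were −0.54 and −0.43, given as a description. Some arms did not follow this order. On 18p the gained share was 2.49% at a rank difference of 0.906, and on 19p it was 0.790% at 3.84. Together 1p, 4p and 7p held 132 gained loci (17.3%) on 9.79% of the union loci, and 24 lost loci. On the other arms 631 of 47818 union loci (1.32%) were gained and 401 (0.839%) lost. The part of these arm-wide rank differences in the gained pattern was not tested.

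Loci open in all 6 libraries overlapped between groups in mean rank near a gained locus, and were apart once each library's own level was taken off. The 978 of them within 100 kb had mean ranks of 69.6, 64.8 and 67.0 in Parental replicates 1, 2 and 3 and of 65.2, 74.8 and 70.4 in the SAP30-KO1 replicates. That is 67.1 ± 2.41 (SD, n = 3) against 70.1 ± 4.81 (SD, n = 3), a difference of 3.02 rank points with overlapping groups. Over all 15444 loci of this kind the difference was 0.933, and near lost loci it was −0.521. The difference near gained loci was −0.307 without SAP30-KO1 replicate 2, the library with the highest mean rank over all 15444 loci (73.5). Relative to its own mean over all 15444 loci, each library differed near gained loci by −0.86, −0.51 and −0.95 in Parental replicates 1, 2 and 3 and by 0.69, 1.3 and 1.94 in the SAP30-KO1 replicates, a description chosen after the values were seen. On this scale the groups did not overlap, with 3 lower and 3 higher libraries.

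The line's identity and the targeted gene were looked at through promoter summits. VIM and CD44, markers of the mesenchymal state of these cells, had a promoter summit in all 6 libraries, ESR1, the estrogen receptor gene, in 1 only, and ZEB1 in 3. Epithelial markers were not absent, since EPCAM had a summit in 5 libraries and KRT18 in 3. The SAP30 promoter ranked 84.7, 64.8 and 81.3 in the parental and 71.8, 49.5 and 89.5 in the SAP30-KO1 libraries, which overlap, and a promoter summit does not check the knockout. The parental lists held 30477 to 36694 summits each, those of SAP30-KO1 held 29762 to 40650, and none held read counts, so the depth behind a summit is unknown. By the same rule, chromosome X held 42 gained and 10 lost loci of 1625, and the long arm of chromosome 11 held 4 gained and 59 lost of 1770, and neither is part of the counts above.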

How the data were processed

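The deposited files are lists of peak summits, 1 per library, for 3 Parental and 3 SAP30-KO1 libraries of MDA-MB-231 cells. Per the study's methods and processing notes, the authors trimmed single-end 75 bp reads with Trim Galore 0.4.5, aligned them to hg19 with Bowtie2 2.3.3.1, removed duplicate alignments by Picard and ran the MACS2 2.1.0 peak caller with a q value of 0.05. Read shifting and the handling of blacklisted regions are not given in the sources used here. The score of a summit is the −log10 q value computed by the authors' peak caller. No counts were used, so no depth is known and no counting test was possible.

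Summit windows of 501 bp were merged into union loci, and scores were turned into percentile ranks within each list. Classes and nearest starts were taken from GENCODE release 44 mapped to GRCh37, with promoters within 1 kb of a start, then exons, introns and intergenic sequence by the median summit. The longest run of N in a chromosome separated its arms. Sequences within 100 bp of the median summit came from GRCh37 and were searched on both strands for 22 motifs. Lists of 21 gene groups were assigned by nearest protein-coding start.

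Named are the 20 loci with the highest mean rank, the 10 highest at protein-coding promoters, the 3 lowest, clusters of at least 3 with gaps under 100 kb, genes nearest at least 3 gained loci, and up to 5 examples a list. Some items that meet this rule, 1 list among them, are not reported here. Sequences were printed for 6 named loci, and the other named loci, among them TENM2, GALC, SLC6A15 and AFDN, are given by position only. The members, lists and tests were chosen with earlier results of these data known. The locus rule was tested on simulated lists. Python 3.11.15, pandas 2.3.3, pyfaidx 0.9.0.4 and samtools 1.23.1 were used. The alternatives tried were other q values, list lengths, window widths, merging rules, group rules, chromosomes, promoter windows and distances, and each library left out in turn.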

Additional observations from a re-analysis of the deposited data

How the results depend on the processing

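No paired analysis was possible because the results come from no test, and the replicate numbers are not said to pair libraries. The count of 763 became 2219 with 1 parental summit allowed and 2749 with at least 2 SAP30-KO1 libraries, and ran from 1079 to 1845 with a library left out, which relaxes the rule by construction. It was 1845 without SAP30-KO1 replicate 1, 1407 without Parental replicate 1, 1361 without SAP30-KO1 replicate 3 and 1213 without Parental replicate 3. The promoter share of 17.4% was 14.4% with equally long lists, 22.5% for windows 100 bp to a side, 23.7% with 1 parental summit allowed, 14.0% and 24.6% with promoter windows of 500 bp and 2.5 kb, and 18% to 23% with a library left out. The median mean rank of 35.3 was 28.9 with at least 2 SAP30-KO1 libraries and 30.9 to 37.6 with a library left out. The share within 100 kb of another gained locus, 11.3%, was 15.2% without chaining, 25% and 27.0% under the looser group rules, 7.47% within 50 kb, 56.1% within 1 Mb and 12.8% to 21.8% with a library left out. The AP-1 share of 28.4% was 21.6% for windows 100 bp to a side, 22.9% without chaining, 11.1% within 50 bp of the median summit and 26.7% to 33.8% with a library left out. Within 50 bp it was 10.7% for all union loci. The rank difference of 3.02 near gained loci ran, with a library left out, from -0.307 without SAP30-KO1 replicate 2 to 3.62 without SAP30-KO1 replicate 1, and was 2.08 with each library's mean over all loci of the 6 libraries subtracted, an alternative chosen after seeing the data. The causes of the other changes were not tested. The remaining values, among them those without 1p, 4p and 7p, an alternative chosen after seeing the data (631 loci), moved by less than the limits set. The limits were the Wilson interval for shares, 4.29 rank points for the median mean rank and 4.81 for the rank difference. The last is larger than the 3.02 it judges, so staying within it says little. The limit for the count was also wide and passed 1130 loci without Parental replicate 2. The lists give no depth, so a missing summit cannot be told from one that too few reads could show.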
